A study of Mus musculus with 24 samples.

Results

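The acute phase proteins considered here are the products of 10 genes, chosen by symbol from the 24532 genes of the joined expression table: Saa1, Saa2, Saa3, Crp, Orm1, Orm2, Serpina3n, Hp, Hpx and Lcn2. All 10 symbols were present in the table, and the rule sets no threshold on a measured value. Transcripts were measured by RNA sequencing in the liver, inguinal white adipose tissue (iWAT), gastrocnemius muscle (GM) and hypothalamus of C57BL/6 mice at 8 weeks of age. In LKO mice (Alb-Cre;Crif1flox/flox), both floxed copies of Crif1, which encodes a factor needed by mitochondrial ribosomes, are deleted by a Cre recombinase under the albumin promoter, which is active in hepatocytes, so the other cells of the liver and the other tissues are not targeted. The Ctrl mice carried the same floxed copies without Cre (Crif1flox/flox), so Cre itself was present in LKO mice only. Each genotype had 3 libraries per tissue, 24 in all. The labels number the libraries but do not say whether they came from separate mice or which tissues came from the same mouse, so the p-values below measure the spread between these libraries.

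The acute phase response is the change in plasma proteins that follows infection, tissue injury or inflammation. Interleukin-6, interleukin-1 and tumor necrosis factor reach the hepatocyte, where STAT3, NF-kB and the C/EBP transcription factors raise the transcription of positive acute phase genes, while negative acute phase proteins such as albumin and transthyretin decline. In the mouse, serum amyloid A and orosomucoid are strong responders, whereas C-reactive protein, the classical marker of inflammation in humans, responds weakly. Adipocytes also secrete haptoglobin, lipocalin 2, orosomucoid and serum amyloid A3.

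Crif1 (listed as Gadd45gip1) was measured at 14.6, 12.5 and 13.6 FPKM (fragments counted relative to transcript length and library size) in the Ctrl livers and at 5.40, 2.002 and 2.51 FPKM in the LKO livers, for a log2 fold change of -1.84 (SE 0.27, limma adjusted p = 0.00357), and its groups overlapped in the other 3 tissues (adjusted p = 0.446 to 0.999). Of the 10956 genes tested in liver, 3006 (27.4%) were called, which requires a fold change of at least 1.5 and a Benjamini-Hochberg adjusted p under 0.05 in limma. These were 2622 genes (23.9%) that were higher and 384 (3.5%) that were lower in LKO mice. FPKM values are shares of a library, and the median log2 fold change of all genes tested in liver was 0.33. After median-ratio scaling, which sets the typical gene of each liver equal, it was -0.05 and the split was even, with 968 genes higher (8.84%) and 942 lower (8.61%) of 10946 tested. For this reason the liver results of the 10 genes and the counts of the other gene lists are given on both scales. Crif1 itself was called downward on both (-2.19 after median-ratio scaling, adjusted p = 0.00501). The LKO livers were also unlike each other. LKO 1 kept the most Crif1, and among the 3 LKO livers it had the highest value of 5 of the 10 acute phase genes and the lowest value of 4 others. Results of the 10 genes that moved without LKO 1 are given with and without it, and without it the estimates of the others, Serpina3n (-0.03), Crp (0.12) and Orm1 (-0.03), stayed under 1.5-fold. Without LKO 1, 3388 of 10436 genes tested (32.5%) were called upward and 519 (4.97%) downward. Fold changes below are differences between LKO and Ctrl means of log2(FPKM + 1), with limma's standard error and its p adjusted over all genes tested in that tissue.

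Of the 10 genes, 8 have a promoter in the RefSeq table used here (GRCm38.p6), and 4 are shown because the results turn on them: Lcn2 and Hpx, which were called upward in LKO livers on the deposited FPKM, and the neighboring genes Saa1 and Saa2, whose values overlapped between the groups. Each sequence is the 250 bases before the transcription start on the gene's own strand, 5′ to 3′. Capitals mark the letters TTGCNNAA, the core recognized by C/EBP factors, on either strand.

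Saa1 (chr7:46742981-46743230, minus strand): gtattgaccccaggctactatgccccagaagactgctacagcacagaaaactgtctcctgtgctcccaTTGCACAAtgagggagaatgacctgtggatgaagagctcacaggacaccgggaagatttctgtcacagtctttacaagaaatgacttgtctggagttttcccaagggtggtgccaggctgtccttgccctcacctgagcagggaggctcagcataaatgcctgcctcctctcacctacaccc

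Saa2 (chr7:46751583-46751832, plus strand): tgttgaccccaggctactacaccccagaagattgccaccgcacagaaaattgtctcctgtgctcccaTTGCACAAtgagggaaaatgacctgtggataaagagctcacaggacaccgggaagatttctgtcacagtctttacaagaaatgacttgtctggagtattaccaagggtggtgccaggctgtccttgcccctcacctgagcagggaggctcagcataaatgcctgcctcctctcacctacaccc

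Lcn2 (chr2:32387740-32387989, minus strand): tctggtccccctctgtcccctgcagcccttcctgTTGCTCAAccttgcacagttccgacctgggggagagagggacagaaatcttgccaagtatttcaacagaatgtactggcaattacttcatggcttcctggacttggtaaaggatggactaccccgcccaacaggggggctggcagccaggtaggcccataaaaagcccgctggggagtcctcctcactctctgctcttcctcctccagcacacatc

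Hpx (chr7:105600117-105600366, minus strand): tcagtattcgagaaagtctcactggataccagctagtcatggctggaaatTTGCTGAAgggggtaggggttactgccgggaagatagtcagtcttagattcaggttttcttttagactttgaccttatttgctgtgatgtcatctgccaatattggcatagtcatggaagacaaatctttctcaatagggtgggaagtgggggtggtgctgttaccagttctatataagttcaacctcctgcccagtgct

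The C/EBP letters occurred in 6 of the 8 promoters (Saa1, Saa2, Saa3, Orm2, Hpx and Lcn2) and in 9.56% of all 32851 promoters of the table. In Saa1 they lay 182 to 175 bases before the start and in Saa2 183 to 176 bases before it, within promoters that were identical at 94.8% of aligned positions. In Lcn2 they lay 216 to 209 bases before the start, and in Hpx 200 to 193 bases. The STAT letters TTCNNNGAA occurred in none of the 8 promoters and in 7.02% of all promoters. The NF-kB letters (GGG and CC flanking 5 bases, of which the third and the fourth are T) occurred in the promoter of Serpina3n alone among the 8, and in 4.11% of all promoters. The searches covered both strands, no match overlapped another motif in the capitals shown, and the absence of these letters from a window says nothing about a factor. The C/EBP core was thus present in the promoter of Lcn2 and in those of Saa1 and Saa2, which overlapped between the groups.

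In the livers of LKO mice, lipocalin 2 transcripts were higher in every library, by 11.0-fold between the group means, and hemopexin transcripts were higher in every library by a smaller margin, with a call that was lost on the other scale. These were the only 2 of the 10 acute phase genes that were called on the deposited FPKM, both upward, beside 27.4% of all genes tested. On the deposited TPM, Orm2 was called as well, making 3. Serum amyloid A, C-reactive protein, orosomucoid 1 and Serpina3n, which include strong inducible genes of the mouse response, overlapped between the groups. The groups did not overlap for the same 2 genes, Lcn2 and Hpx, of the 10, whereas 61.1% of all genes tested in liver had groups that did not overlap. The median log2 fold change of the 10 genes was 0.09 beside 0.33 for all genes tested, and -0.34 beside -0.05 after median-ratio scaling.

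**Figure D1:**
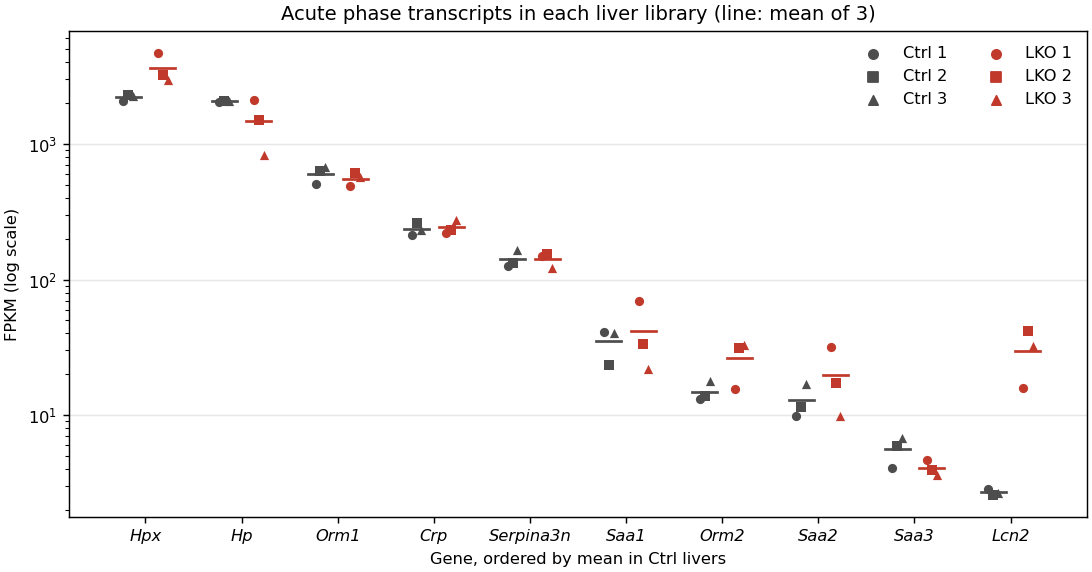
FPKM of the 10 acute phase genes in each of the 3 Ctrl and 3 LKO livers, on a log axis, with the group means. Lcn2 runs from 2.59 to 2.86 FPKM in Ctrl and from 15.8 to 41.5 in LKO, Hpx is also separated, and the points of the other 8 genes overlap.

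The 10 genes covered almost 3 orders of magnitude in Ctrl liver, where FPKM is a level per transcript length. Hpx stood first with a mean of 2216 FPKM, followed by Hp at 2064, Orm1 at 605, Crp at 234 and Serpina3n at 141. Saa1 came next at 34.9 FPKM, then Orm2 at 14.9, Saa2 at 12.8, Saa3 at 5.58 and Lcn2 at 2.71. Orm2 and Saa2 overlapped over the 3 Ctrl livers, and every other gene lay wholly above the next in this order. Lcn2, the gene with the largest fold change, was the least abundant of the 10 in Ctrl liver, and in LKO liver its level was near that of Orm2 (15.5 to 32.9 FPKM).

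Lcn2 (gene 16819, chr2:32384637-32387739 on mm10) encodes a lipocalin that binds bacterial siderophores and so withholds iron from bacteria. It was measured at 2.86, 2.59 and 2.67 FPKM in the Ctrl livers and at 15.8, 41.5 and 32.2 FPKM in LKO livers 1, 2 and 3. All 3 LKO livers lay far above all 3 Ctrl livers, and LKO 1 was the lowest of them. The means were 2.71 ± 0.14 and 29.8 ± 13.03 FPKM (SD, n = 3 each), a log2 fold change of 2.95 (SE 0.31, limma adjusted p = 0.00142). After median-ratio scaling it was 2.57 (adjusted p = 0.0019), and without LKO 1 it was 3.34 (adjusted p = 2.73e-06). Lcn2 was called in liver under each of these settings.

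Neutrophils and macrophages also make Lcn2, and transcripts of both were higher in the LKO livers. The summed FPKM of 12 neutrophil markers was 1.53 to 2.25 in Ctrl and 9.41 to 11.7 in LKO livers. Only 3 of the 12, S100a8, S100a9 and Csf3r, passed the filter on low values, and they did so through the LKO libraries, so that their upward calls (3 on the deposited FPKM, 2 after median-ratio scaling) were largely set by the filter. The defining marker Ly6g stayed at or below 0.044 FPKM in every liver. The 8 monocyte and macrophage markers summed to 63.2 to 70.0 FPKM in Ctrl and 163 to 242 FPKM in LKO livers, with all 4 that passed the filter called upward on both scales. Of these, Fcgr1 was at 0.66 to 0.85 FPKM in Ctrl livers and passed the filter through the LKO livers alone, so its direction was set by the filter. The 8 Kupffer cell markers summed to 215 to 234 FPKM in Ctrl and 302 to 426 FPKM in LKO livers, with 7 called upward and 1, C6, downward (5 and 1 after median-ratio scaling). Of all genes tested, 23.9% were called upward and 3.5% downward, and 8.84% and 8.61% after median-ratio scaling. The 10 hepatocyte markers summed to 57827 to 60746 FPKM in Ctrl and 43826 to 68202 FPKM in LKO livers, with none called upward and 2 downward (4 after median-ratio scaling). The part of these cells in the Lcn2 result was not tested, and in bulk tissue a change in the number of cells of a type cannot be told apart from a change in RNA per cell.

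Hpx (gene 15458, chr7:105591611-105600116) encodes hemopexin, the plasma carrier that delivers free heme to the liver. Its values were 2083, 2310 and 2255 FPKM in Ctrl and 4664, 3208 and 2948 FPKM in LKO livers. The groups did not overlap, and LKO 1 was the highest of the 6 livers. Its log2 fold change was 0.67 (SE 0.20, adjusted p = 0.0348). It was 0.23 after median-ratio scaling (adjusted p = 0.569) and 0.47 without LKO 1, which is under 1.5-fold. Without Ctrl 1, Ctrl 2, Ctrl 3 or LKO 2 the change was 0.63 to 0.74 but the adjusted p was 0.0887 to 0.104, so of these 6 omissions only that of LKO 3 kept the call. In 1 fit of all 24 libraries the adjusted p of Hpx was 0.217.

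Hp (gene 15439, chr8:109575128-109579172) encodes haptoglobin, which binds free hemoglobin. It was measured at 2047, 2067 and 2077 FPKM in the Ctrl livers and at 2101, 1512 and 835 FPKM in the LKO livers. The Ctrl livers were nearly identical, whereas the LKO livers ran from just above the Ctrl range in LKO 1 to well below it in LKO 3. The log2 fold change of -0.58 (SE 0.31, adjusted p = 0.161) was not called. It was -1.02 after median-ratio scaling (adjusted p = 0.0997), and Hp fell by 0.88 on the log2 scale without LKO 1 (adjusted p = 0.0094). Without LKO 3 the estimate moved the other way, to -0.21 (adjusted p = 0.378). Hp and Hpx, both carriers of hemoglobin or its heme, thus differed in the sign of their estimates on the deposited FPKM.

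Genes that handle heme and iron once these carriers are taken up, from a list of 18, were measured beside them. Of 15 that passed the filter, 5 were called upward and none downward on the deposited FPKM, beside 23.9% and 3.5% of all genes tested, and 5 upward and 2 downward after median-ratio scaling, beside 8.84% and 8.61%. Without LKO 1 the counts were 7 and 1, beside 32.5% and 4.97% of all genes tested. Hmox1, which encodes the heme-degrading enzyme heme oxygenase 1, was measured at 6.65, 7.01 and 6.38 FPKM in Ctrl and at 26.4, 41.4 and 49.7 FPKM in LKO livers, a log2 fold change of 2.34 (adjusted p = 0.0009). All LKO livers lay above all Ctrl livers, and LKO 1 was the lowest and LKO 3 the highest of them, the opposite of Hp and Hpx. The heme transporter gene Slc48a1 had a log2 fold change of 1.46 (adjusted p = 0.0106), and Slc40a1, which encodes the iron exporter ferroportin, had a log2 fold change of 1.41 (adjusted p = 0.0042). All 3 were also called after median-ratio scaling (1.93, 1.03 and 0.97). Hamp, which encodes hepcidin, the hormone that removes ferroportin from the cell surface and is itself an acute phase gene, was measured at 696, 367 and 370 FPKM in Ctrl and at 986, 406 and 951 FPKM in LKO livers. Its groups overlapped (log2 fold change 0.67, adjusted p = 0.193).

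Saa1, Saa2 and Saa3 encode apolipoproteins of high-density lipoprotein and lie together on chromosome 7. Saa1 (gene 20208, chr7:46740499-46742980) was measured at 40.8, 23.4 and 40.6 FPKM in Ctrl and at 69.6, 33.5 and 21.8 FPKM in LKO livers. LKO 1 was the highest and LKO 3 the lowest of all 6 livers, and the groups overlapped. This gave a log2 fold change of 0.13 (SE 0.41, adjusted p = 0.805). Its sign turned with the scaling (-0.30, adjusted p = 0.666) and without LKO 1 (-0.32), so no direction can be given.

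Saa2 (gene 20209, chr7:46751833-46754314) was measured at 9.86, 11.5 and 17.1 FPKM in Ctrl and at 31.8, 17.3 and 9.78 FPKM in LKO livers. As for Saa1, LKO 1 was the highest and LKO 3 the lowest of the 6. This gave a log2 fold change of 0.47 (SE 0.39, adjusted p = 0.338), and median-ratio scaling brought it to 0.06 (adjusted p = 0.935). On the deposited FPKM it was 0.06 without LKO 1 (adjusted p = 0.847) and 0.86 without LKO 3 (adjusted p = 0.0717), so its size rested on single libraries. The 2 transcripts were identical at 93.9% of aligned positions, with a longest shared run of 99 bases, so the division of reads between Saa1 and Saa2 is uncertain.

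Saa3 (gene 20210, chr7:46711998-46715676), which macrophages and adipocytes also express, was measured at 4.04, 5.95 and 6.74 FPKM in Ctrl and at 4.69, 3.91 and 3.63 FPKM in LKO livers. The groups overlapped through LKO 1 alone. On the deposited FPKM the log2 fold change was -0.36 (SE 0.18, adjusted p = 0.140; -0.44 without LKO 1, adjusted p = 0.0545), and after median-ratio scaling Saa3 was called as lower in LKO livers (-0.72, adjusted p = 0.0453). This was the only one of the 10 genes called downward on that scale, beside 8.61% of all genes, and Lcn2 was the only one called upward, beside 8.84%. Saa3 thus did not rise with the Kupffer cell and macrophage markers given above. With median-ratio scaling and without LKO 1, an alternative chosen after seeing the data, Lcn2 was called upward (2.86) and Saa3 (-0.88) and Hp (-1.42) downward. The share of all genes called under that alternative is not given, so these calls cannot be set beside it.

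Crp (gene 12944, chr1:172698056-172699966) encodes C-reactive protein, a pentraxin. It was measured at 212, 260 and 231 FPKM in Ctrl and at 219, 233 and 277 FPKM in LKO livers. The groups overlapped throughout, with a log2 fold change of 0.05 (SE 0.14, adjusted p = 0.762). After median-ratio scaling it was -0.39 (adjusted p = 0.0488), under 1.5-fold, so its sign also turned with the scaling.

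Orm1 (gene 18405, chr4:63344556-63348163) and Orm2 (gene 18406, chr4:63362449-63365877) encode orosomucoids, small plasma glycoproteins of the lipocalin family that bind basic drugs. Orm1 was measured at 505, 635 and 675 FPKM in Ctrl and at 486, 607 and 570 FPKM in LKO livers, which overlapped (log2 fold change -0.12, SE 0.16, adjusted p = 0.533). Median-ratio scaling gave it a log2 fold change of -0.56 (adjusted p = 0.0407), short of the 1.5-fold limit.

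Orm2 was measured at 13.05, 13.7 and 17.8 FPKM in Ctrl and at 15.5, 31.0 and 32.9 FPKM in LKO livers. LKO 2 and LKO 3 lay above all Ctrl livers and LKO 1 lay among them. The log2 fold change was 0.74 (SE 0.28, adjusted p = 0.0654), and without LKO 1 it was 1.07 (adjusted p = 0.000405). LKO 1 lay among the Ctrl values, so a larger value was fixed by leaving it out. Without any other single liver the change was 0.55 to 0.86 and not called (adjusted p = 0.0967 to 0.192). Without the filter the adjusted p was 0.105, and with ordinary in place of moderated variances it was 0.171. In 1 fit of all 24 libraries, which pools the spread of all tissues, the adjusted p was 0.0137. Orm2 was at 0.35 FPKM or less in GM. On the deposited TPM the log2 fold change was 0.87 (adjusted p = 0.0336), whereas after median-ratio scaling of all 6 livers it was 0.31 (adjusted p = 0.301). The Orm1 and Orm2 transcripts were identical at 91.0% of aligned positions with a longest shared run of 141 bases, longer than the 100-base reads, so reads may have been divided between them.

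Serpina3n (gene 20716, chr12:104406708-104414329) encodes a secreted inhibitor of serine proteases. It was measured at 126, 132 and 166 FPKM in Ctrl and at 149, 155 and 121 FPKM in LKO livers. The groups overlapped, with a log2 fold change of 0.01 (SE 0.15, adjusted p = 0.970), whereas median-ratio scaling gave -0.43 (adjusted p = 0.148), with the sign turned. Of its 10 paralogs in the Serpina3 cluster, 4 passed the filter, and 2 were called upward and 2 downward on the deposited FPKM, beside 23.9% and 3.5% of all genes tested, against 1 and 2 after median-ratio scaling, beside 8.84% and 8.61%. Serpina3k, the most abundant of the cluster, was measured at 8078, 9094 and 9127 FPKM in Ctrl and at 4385, 3206 and 1667 FPKM in LKO livers, a log2 fold change of -1.61 (adjusted p = 0.0117), and Serpina3m had a log2 fold change of -0.84 (adjusted p = 0.0311). Serpina3g had a log2 fold change of 1.43 (adjusted p = 0.0009). Reads of this cluster can fall on several paralogs, so values of single genes in it are uncertain.

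**Figure D2:**
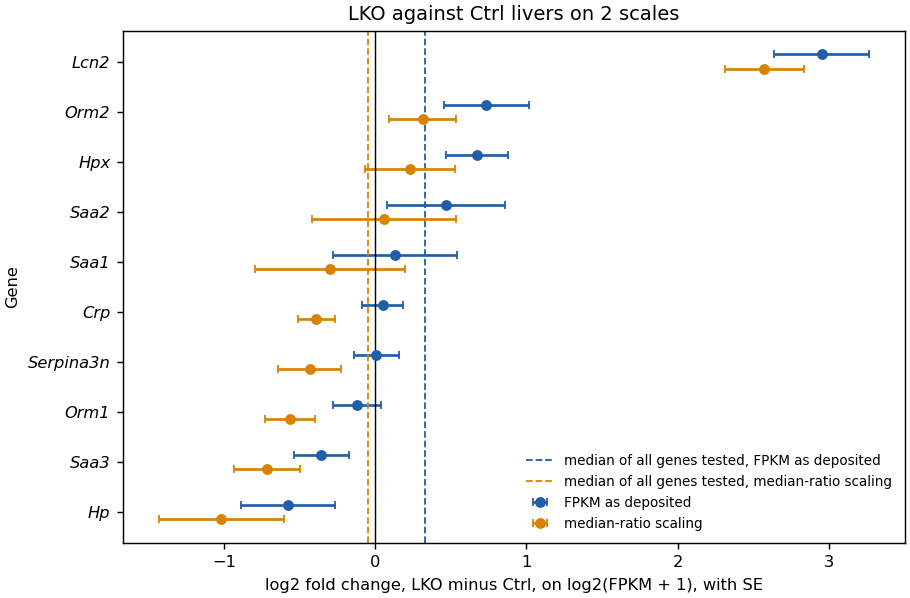
Log2 fold changes (LKO minus Ctrl liver, on log2(FPKM + 1)) of the 10 acute phase genes with limma's standard errors, on the deposited FPKM and after median-ratio scaling, with the median of all genes tested on each scale as dashed lines. Lcn2 stands apart on both scales (2.95 and 2.57), Hpx drops from 0.67 to 0.23 with the scaling, and Hp is the lowest (-0.58 and -1.02).

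Of the 45 pairs of the 10 genes, 4 had a Pearson r above 0.8 in size over the 6 livers: Orm2 and Lcn2 (0.85) and Saa1 and Saa2 (0.81) varied together, and Saa1 and Crp (-0.85) and Orm2 and Hp (-0.85) varied in opposite directions. These are descriptions over 6 libraries of 2 genotypes that share a scale, with no test. By the same measure, the genes most like Lcn2 were Nipa2 (r = 0.999), Sprr1a (r = 0.998) and Ppwd1 (r = 0.998). Sprr1a was listed at 0 in the 3 Ctrl livers and measured at 4.85, 21.04 and 17.2 FPKM in LKO livers 1, 2 and 3. The genes most like Saa1 were Cntrob (r = 0.996), Gnat1 (r = 0.980) and Tapbpl (r = 0.977), and those most like Hp were Cfb (r = 0.994), Gltpd2 (r = 0.993) and Gm3704 (r = 0.990).

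A further 27 genes, listed here as positive acute phase genes, were examined beside the 10 genes. Of 25 that passed the filter, 4 were called upward and 6 downward on the deposited FPKM, beside 23.9% and 3.5% of all genes tested. The 6 downward calls were those of the near-identical Serpina1 paralogs and of Saa4, which is expressed without induction. That count is therefore not read as a fall of inducible genes. After median-ratio scaling, 3 of the 25 were called upward and 7 downward, beside 8.84% and 8.61% of all genes tested. Without LKO 1 these counts were 3 and 11 on the deposited FPKM, beside 32.5% and 4.97% of all genes tested. The total of 10 called was 2 without LKO 2, 7 without LKO 3 and 4 without any 1 of the 3 Ctrl livers. Calls over all genes fell as well, from 3006 to 1343 without LKO 2, 1715 without LKO 3 and 1781 to 2090 without a Ctrl liver. The median log2 fold change was -0.26 on the deposited FPKM and -0.71 after median-ratio scaling.

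Apcs, which encodes serum amyloid P, a pentraxin like Crp, was measured at 52.3, 62.5 and 55.4 FPKM in Ctrl and at 176, 449 and 599 FPKM in LKO livers, a log2 fold change of 2.66 (adjusted p = 0.0041). All LKO livers lay above all Ctrl livers, while Crp overlapped. Il1rn, which encodes the interleukin-1 receptor antagonist, was measured at 0.42, 0.31 and 0.50 FPKM in Ctrl and at 4.10, 7.34 and 8.35 FPKM in LKO livers (2.39, adjusted p = 0.0010). Il1rn was under 1 FPKM in all Ctrl livers and passed the filter through the LKO livers alone. Both genes were lowest in LKO 1 among the LKO livers, as was Lcn2, and both were called after median-ratio scaling (2.22 and 2.13). Serpina1e, an alpha-1-antitrypsin gene, was measured at 11328, 12856 and 13424 FPKM in Ctrl and at 6109, 2612 and 1364 FPKM in LKO livers (-2.16, adjusted p = 0.0147), and was called downward after median-ratio scaling too (-2.61). The 5 Serpina1 genes, Serpina1a to Serpina1e, were all called downward, but they are near-identical paralogs and their reads cannot be assigned with certainty. Cd14, Steap4 and Saa4, named here after their values were seen, completed the called genes: Cd14 (1.73) and Steap4 (0.75) upward, and Saa4 (-1.34), the serum amyloid A gene expressed without induction, downward.

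**Figure D3:**
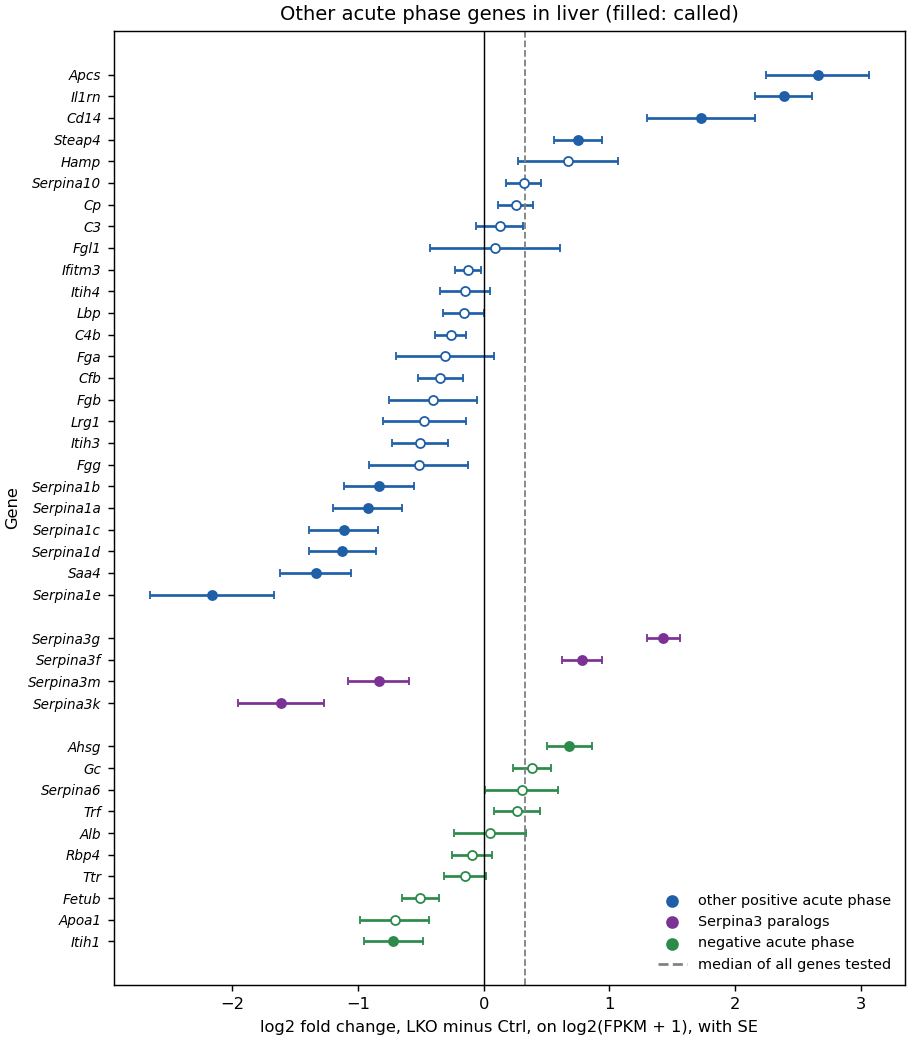
Log2 fold changes with limma's standard errors (LKO minus Ctrl liver, on log2(FPKM + 1)) of the further positive acute phase genes, the Serpina3 paralogs and the negative acute phase genes that passed the filter, filled where called, with the median of all genes tested (0.33) as a dashed line. Apcs (2.66) and Il1rn (2.39) stand at the upper end and Serpina1e (-2.16) at the lower end.

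Of 10 negative acute phase genes tested, Ahsg, which encodes fetuin-A, was called upward (log2 fold change 0.68, adjusted p = 0.0230) and Itih1 downward (-0.72, adjusted p = 0.0425), beside 23.9% and 3.5% of all genes tested, and the median was -0.02. After median-ratio scaling none was called upward and 2 downward, beside 8.84% and 8.61%, and the median was -0.46. Without LKO 1 these counts were 1 and 3 on the deposited FPKM, beside 32.5% and 4.97%. Albumin transcripts (Alb) were measured at 39800, 42770 and 39763 FPKM in Ctrl and at 53194, 42859 and 33127 FPKM in LKO livers, so that LKO 1 was the highest and LKO 3 the lowest, as for Saa1 and Saa2.

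The cytokines that induce these genes were scarce in liver. Of 10 listed, 4 passed the filter and 3 were called upward, beside 23.9% of all genes tested: Clcf1 (log2 fold change 1.68, adjusted p = 0.0036), Il1a (0.65, adjusted p = 0.0280) and Il1b (0.60, adjusted p = 0.0048). Il1b was measured at 0.76, 0.69 and 0.86 FPKM in Ctrl and at 1.77, 1.55 and 1.75 FPKM in LKO livers, with no overlap. Il1b and Clcf1 were under 1 FPKM in all Ctrl livers and passed the filter through the LKO livers alone, so their direction among the genes tested was set by the filter. Without LKO 1 only 2 of the 10 passed the filter and 1 was called, beside 32.5%. Only 1 of these calls, Clcf1, was made after median-ratio scaling, beside 8.84% of all genes. Il6 was at or below 0.07 FPKM in every liver and was not tested. Tnf was not tested either, at 0.13 FPKM or less in Ctrl and 0.24 to 0.53 FPKM in LKO livers.

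Receptors and transducers lie between these cytokines and the 10 genes. Of 11 receptor genes, 6 were called upward and 2 downward, beside 23.9% and 3.5% of all genes tested. After median-ratio scaling the counts were 3 and 3, beside 8.84% and 8.61%. The largest changes were those of Ifngr1 for interferon gamma (1.82, adjusted p = 0.0050), Lifr for leukemia inhibitory factor (-1.51, adjusted p = 0.0054) and Il22ra1 for interleukin-22 (1.23, adjusted p = 0.0342). Il6ra (0.35, adjusted p = 0.160) and Il1r1 (0.28, adjusted p = 0.340), the receptors of the principal inducers, were not called. After median-ratio scaling Ifngr1 (1.404) and Lifr (-1.93) were called and Il22ra1 (0.88, adjusted p = 0.0700) was not.

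Of 20 transducers and transcription factors, 3 were called upward, Nfkb2 (1.20, adjusted p = 0.0044), Jak1 (0.76, adjusted p = 0.0090) and Stat3 (0.69, adjusted p = 0.0043), and 1 downward, Cebpa (-0.89, adjusted p = 0.0074), which is 3 and 1 of 20 beside 23.9% and 3.5% of all genes tested, and 5 and 1 without LKO 1, beside 32.5% and 4.97%. Stat3, the main transducer of interleukin-6, was measured at 27.5, 26.8 and 28.0 FPKM in Ctrl and at 49.9, 45.1 and 40.5 FPKM in LKO livers, without overlap. After median-ratio scaling it was not called (0.26, adjusted p = 0.261). The counts of the list on that scale were 1 upward and 2 downward, beside 8.84% and 8.61% of all genes tested. Cebpb, the inducible C/EBP factor, was measured at 57.7, 10.4 and 80.3 FPKM in Ctrl and at 62.6, 95.0 and 89.2 FPKM in LKO livers, with Ctrl 2 far below the others and the groups overlapping (1.11, adjusted p = 0.199). Cebpd was not called (0.34, adjusted p = 0.153).

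Feedback inhibitors and early targets of these pathways gave 3 upward calls and no downward call among 10 tested, beside 23.9% and 3.5% of all genes tested, so that the upward count was near that of all genes: Junb (1.39, adjusted p = 0.0013), Bcl3 (0.76, adjusted p = 0.0142) and Nfkbiz (0.69, adjusted p = 0.0041), the last of which is needed for the induction of Lcn2 in macrophages. After median-ratio scaling 1 was called upward and none downward, beside 8.84% and 8.61% of all genes tested. Socs3, the feedback inhibitor that follows interleukin-6 signaling, was not called (0.45, adjusted p = 0.149).

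In iWAT no gene of 12288 was called after adjustment (0.0%, with a smallest adjusted p of 0.0734 and 1842 genes at an unadjusted p under 0.05), so the values below use the unadjusted p of limma with the same 1.5-fold limit, which 399 genes (3.25%) passed. Of the 10 acute phase genes, 6 passed the filter in iWAT and 3 passed this limit: Hp and Serpina3n were lower and Lcn2 was higher in LKO mice. The groups of the same 3 genes did not overlap, beside 20.8% of all genes tested. None of the 3 passed the adjusted threshold in the fit of the 6 iWAT libraries, and in 1 fit of all 24 libraries Lcn2 passed it (adjusted p = 0.0317) while Hp (0.182) and Serpina3n (0.172) did not. Hp led the 10 genes in Ctrl iWAT with a mean of 2828 FPKM, close to its level in liver, followed by Serpina3n at 199 and Orm1 at 176, which overlapped. Orm2 (3.78), Saa3 (2.07) and Lcn2 (1.34) followed, overlapping between neighbors, and Hpx and Crp lay at or below 0.27 FPKM in every Ctrl library, while Saa1 and Saa2 were listed at 0 in all 3.

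Hp was measured at 2428, 2821 and 3234 FPKM in the Ctrl and at 1166, 1772 and 1523 FPKM in the LKO iWAT libraries. All LKO libraries lay below all Ctrl libraries. Its log2 fold change was -0.94 (SE 0.20, limma adjusted p = 0.127). Adipocyte markers summed to between 52889 and 62164 FPKM across both groups, with the lowest sum, in LKO 1, in the library with the lowest Hp, and their part in the Hp value was not tested. The difference between the Hp fold changes of iWAT and liver was -0.36, which did not pass the test of the difference (adjusted p = 0.677), and a p that misses the threshold does not show that the 2 tissues responded alike.

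Saa3, which adipocytes and macrophages express in inflamed fat, was measured at 0.68, 4.11 and 1.42 FPKM in Ctrl and at 1.05, 0.37 and 1.19 FPKM in LKO iWAT. The groups overlapped, and Ctrl 2 stood apart. Its log2 fold change was -0.59 (SE 0.41, limma adjusted p = 0.537), without Ctrl 2 it was -0.14, and without Ctrl 1 it was -0.94 and passed the unadjusted limit. In 1 limma fit of all 24 libraries it also passed that limit at the same change (unadjusted p = 0.0365, adjusted p = 0.243). Monocyte and macrophage markers summed to 1698 FPKM in Ctrl 2 and to 651 to 1060 FPKM in the other 5 libraries, so the library with the most Saa3 was also the highest in these markers, and their part in the Saa3 value was not tested. The difference of Saa3 between iWAT and liver was -0.23 (adjusted p = 0.704).

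Lcn2 was measured at 1.3, 1.39 and 1.34 FPKM in Ctrl and at 5.17, 7.53 and 2.21 FPKM in LKO iWAT. Every LKO library lay above the Ctrl range, with LKO 3 closest to it. Its log2 fold change was 1.24 (SE 0.33, limma adjusted p = 0.172). Mammary epithelium transcripts were present in the same libraries: the 6 listed markers summed to 0.14, 0.04 and 0.30 FPKM in Ctrl and to 4.83, 7.15 and 0.13 FPKM in LKO 1, 2 and 3, with Csn2 and Wap at 0 in all. Lactotransferrin (Ltf), which mammary epithelium and neutrophils both make, was measured at 2.05, 3.26 and 0.18 FPKM in LKO and at 0.06 FPKM or less in Ctrl. Neutrophil markers summed to 6.12 to 9.59 FPKM in Ctrl and 16.0 to 26.5 FPKM in LKO, with 2 of 12, S100a8 and S100a9, past the unadjusted limit upward. Red blood cell markers summed to 477 to 1308 FPKM in Ctrl and 853 to 1751 FPKM in LKO, with 3 of 4 tested, Hba-a1, Hba-a2 and Alas2, past the unadjusted limit upward, while Hbb-bs overlapped. The part of any of these cells in the Lcn2 value was not tested. Without LKO 1 and LKO 2, an alternative chosen after seeing the data, the log2 fold change of Lcn2 was 0.45, under 1.5-fold, with the lone LKO library assumed to vary like the Ctrl libraries. These were also the libraries with the most Lcn2, so a smaller value was fixed by leaving them out.

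Serpina3n was measured at 187, 178 and 233 FPKM in Ctrl and at 151, 140 and 106 FPKM in LKO iWAT, without overlap (log2 fold change -0.59, SE 0.16, limma adjusted p = 0.185). It no longer passed the unadjusted limit without Ctrl 3 (-0.47), without LKO 3 (-0.44) or on the deposited TPM (-0.56). Without LKO 1 and LKO 2 the log2 fold changes were -0.89 for Serpina3n and -0.88 for Hp. LKO 3, the library kept, had the lowest Serpina3n of all, so that the larger value was fixed by keeping it, and an arm of 1 library says nothing of the stability of either. Orm1 was measured at 227, 132 and 169 FPKM in Ctrl and at 419, 191 and 125 FPKM in LKO (log2 fold change 0.33, limma adjusted p = 0.758), and Orm2 at 4.396, 2.82 and 4.14 FPKM in Ctrl and at 7.56, 4.32 and 2.98 FPKM in LKO (0.26, adjusted p = 0.707). Both orosomucoids were highest in LKO 1 and overlapped.

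**Figure D4:**
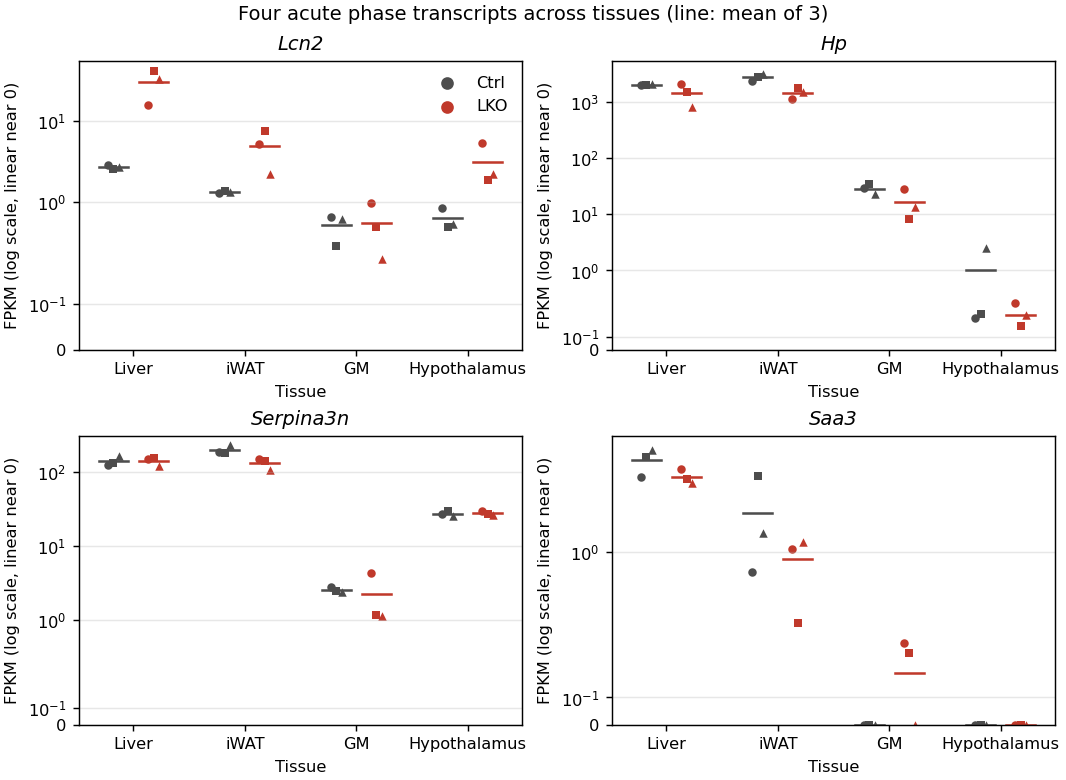
FPKM in each library of Lcn2, Hp, Serpina3n and Saa3 in liver, iWAT, GM and hypothalamus, on an axis that is logarithmic and turns linear near 0, with the mean of 3 libraries as a line. Hp is lower in LKO iWAT (1166 to 1772 FPKM) than in Ctrl iWAT (2428 to 3234 FPKM), and Lcn2 lies above its Ctrl range in the LKO libraries of liver, iWAT and hypothalamus.

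In GM no gene of 10877 was called after adjustment (0.0%, with 743 genes at an unadjusted p under 0.05), and 98 (0.901%) passed the unadjusted limit. Hp was the only one of the 4 acute phase genes tested there that passed it. It was measured at 29.5, 34.2 and 23.1 FPKM in Ctrl and at 28.1, 8.34 and 13.5 FPKM in LKO muscle, with LKO 1 inside the Ctrl range (log2 fold change -0.91, SE 0.38, limma adjusted p = 0.728). Without LKO 2 the change was -0.53, and it no longer passed the limit without Ctrl 1, Ctrl 2, LKO 2 or LKO 3. Adipocyte and liver transcripts varied between these libraries. The 8 adipocyte markers summed to 3239, 3406 and 1954 FPKM in Ctrl and to 4089, 2867 and 3161 FPKM in LKO, with overlap. Among them Adipoq, the adipocyte gene for adiponectin, was at 27.3, 39.1 and 6.62 FPKM in Ctrl and at 48.1, 6.53 and 10.5 FPKM in LKO. The 10 hepatocyte markers summed to 268, 44.6 and 200 FPKM in Ctrl and to 122, 19.5 and 42.4 FPKM in LKO. The part of these transcripts in the Hp value was not tested. Orm1, Hpx and Serpina3n, the other genes tested in GM, overlapped between the groups: Orm1 was measured at 4.13, 1.54 and 2.73 FPKM in Ctrl and at 7.44, 0.24 and 0.80 FPKM in LKO muscle. Hpx, a transcript of hepatocytes, was measured at 9.83, 1.01 and 8.29 FPKM in Ctrl and at 5.72, 0.89 and 3.09 FPKM in LKO muscle, lowest in the library of each genotype that had the lowest sum of hepatocyte markers. Serpina3n was measured at 2.80, 2.51 and 2.40 FPKM in Ctrl and at 4.34, 1.19 and 1.15 FPKM in LKO muscle. These 3 genes passed the unadjusted limit downward once 1 library was left out: Serpina3n went from -0.28 to -0.72 and Orm1 from -0.46 to -1.29 without LKO 1, and Hpx from -0.65 to -1.43 without Ctrl 2. Other omissions moved them the other way: without LKO 2 the change was -0.07 for Serpina3n, 0.10 for Orm1 and -0.16 for Hpx, and without LKO 3 it was -0.06 for Serpina3n. Lcn2 was below the filter at 0.20 to 0.99 FPKM and overlapped.

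In the hypothalamus, 3 of 13828 genes (0.0217%) were called after adjustment and 46 (0.333%) passed the unadjusted limit. Only Lcn2 and Serpina3n of the 10 passed the filter. Lcn2 was measured at 0.86, 0.50 and 0.55 FPKM in Ctrl and at 5.34, 1.86 and 2.25 FPKM in LKO, again with all LKO libraries above all Ctrl libraries (log2 fold change 1.26, SE 0.28, limma adjusted p = 0.999). It passed the unadjusted limit only. All Ctrl values were under 1 FPKM, so Lcn2 entered this test through the LKO libraries alone. The groups did not overlap for 1342 of the 13828 genes tested there. The 12 neutrophil markers summed to 4.605 to 9.23 FPKM in Ctrl and 6.84 to 13.3 FPKM in LKO hypothalamus, and 5 choroid plexus markers to 9.83 to 12.6 FPKM and 9.49 to 10.3 FPKM, both with overlap between the groups and no marker past the limit. Serpina3n, which astrocytes express, was measured at 27.0, 29.6 and 25.8 FPKM in Ctrl and at 29.8, 27.0 and 26.1 FPKM in LKO, which overlapped (0.01). Hp reached 2.55 FPKM in Ctrl 3, where the hepatocyte markers summed to 40.2 FPKM, beside 7.8 to 12.3 FPKM in the other 5 libraries, and Saa3 and Orm2 were listed at 0 in all 6 libraries. Saa1, below the filter, was at 0.249, 0.377 and 0.357 FPKM in Ctrl and at 0, 0.081 and 0.206 FPKM in LKO, without overlap.

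To compare the tissues, the LKO effect was tested for a difference from liver in 1 limma fit of all 24 libraries. That fit took the libraries as independent, although tissues may share a mouse, so its p-values rest on that assumption. Of 15849 genes, 5306 (33.5%) had an adjusted p under 0.05, and among the 10 acute phase genes Lcn2 alone did (F test over the 3 differences, adjusted p = 0.00109; 0.00184 after median-ratio scaling). Its LKO effect was smaller than in liver by 1.71 in iWAT (adjusted p = 0.00923), by 2.94 in GM (adjusted p = 0.000218) and by 1.70 in the hypothalamus (adjusted p = 0.0114) on the log2 scale. A pseudocount of 1 compresses a change at levels near 1 FPKM, where Lcn2 lay in Ctrl iWAT and hypothalamus. With a pseudocount of 0.1 the log2 fold changes were 3.30 in liver, 1.65 in iWAT and 2.02 in the hypothalamus, the F test still passed (adjusted p = 0.00648), and the differences from liver were -1.65 in iWAT (adjusted p = 0.0651) and -1.28 in the hypothalamus (adjusted p = 0.153), neither past the threshold, and -3.35 in GM (adjusted p = 0.00129). Lcn2 was thus higher in LKO than in Ctrl in every library of 3 tissues, with the largest estimate in liver. Groups that did not overlap were found for 61.1% of all genes tested in liver, 20.8% in iWAT and 1342 of 13828 in the hypothalamus. In tests within 1 tissue Lcn2 passed the adjusted threshold in liver alone. In the fit of all 24 libraries the LKO effect on Lcn2 also passed it in iWAT (1.24, adjusted p = 0.0317), but not in the hypothalamus (1.26, adjusted p = 0.177).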

How the data were processed

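Per the labels, total RNA was extracted with Trizol and made into TruSeq RNA v2 libraries, an unstranded kit, which were sequenced as 100-nt paired reads on a HiSeq4000. The submitters' processing notes name FastQC 0.11.5, Trimmomatic 0.32, HISAT2 2.0.5, Bowtie2 2.2.6, STAR 2.5.2b and StringTie 1.3.3b and the mm10 genome, with no role given to the 3 aligners. The authors deposited FPKM per gene for 24 libraries in a joined table, and FPKM, TPM and mean coverage signal per gene for each library. No read counts were used here. From the deposited coverage and FPKM, aligned depth came to 4.45 to 8.09 gigabases per library (liver 4.70 to 8.09), at which 1 read pair on a transcript of 1000 bases is worth 0.0247 to 0.045 FPKM, taking 200 aligned bases per pair. This covers counting error only.

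Genes that reached 1 FPKM in 3 or more of the 6 libraries of a tissue were tested on log2(FPKM + 1) with limma 3.58.1 (R 4.3.3; lmFit and eBayes with trend, two-sided), and p-values were adjusted by Benjamini-Hochberg over all genes tested in that tissue. A call required a fold change of at least 1.5 and an adjusted p under 0.05, or an unadjusted p under 0.05 where stated. Tissue differences used 1 fit of all 24 libraries, taken as independent because the labels do not say which tissues share a mouse. The fitting code was tested on simulated data. The 10 genes and the lists of other genes were chosen with earlier results of these data known. Every one of the 10 genes was named, and from each other list up to 3 called genes with the largest absolute change, plus a few inducers, transducers and Hamp. Sequences came from RefSeq (GRCm38.p6), where 8 of the 10 genes had a promoter, and transcript identities from global alignments of GENCODE mouse transcripts. Figures were drawn with matplotlib 3.10.9.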

Additional observations from a re-analysis of the deposited data

Results flagged for a closer look

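The LKO effect on Lcn2 differed between the tissues. The test of the difference itself, an F test over the differences of iWAT, GM and hypothalamus from liver in limma, gave an adjusted p of 0.00109. The log2 fold change was 2.95 in liver, 1.24 in iWAT and 1.26 in the hypothalamus, with LKO above Ctrl in all 3 libraries of each of these tissues, and the difference from liver was -2.94 in GM, where the groups overlapped at under 1 FPKM. With a pseudocount of 0.1 the differences of iWAT (-1.65, adjusted p = 0.0651) and hypothalamus (-1.28, adjusted p = 0.153) from liver did not pass the threshold, and that of GM did (-3.35, adjusted p = 0.00129). Without 1 library at a time, the number of the 10 acute phase genes that passed this test was 1 to 3.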

How the results depend on the processing

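The calls of liver genes depended on the processing. On the adjusted p, the 3006 liver genes called became 1776 with a minimum mean of 5 FPKM, 4822 on the deposited TPM, 1910 after median-ratio scaling (968 higher and 942 lower, beside 2622 and 384) and 1499 with ordinary in place of moderated variances, and they ran from 1343 to 3907 without 1 library at a time. On the unadjusted p, 3168 liver genes were called, which became 1915 with the minimum mean and 4956 on TPM, and ran from 1937 to 3914 without 1 library. In iWAT the adjusted count of 0 became 14 after median-ratio scaling and 317 in 1 fit of all 24 libraries, and ran from 0 to 106 without 1 library, and the unadjusted count ran from 297 to 608. In GM the adjusted count of 0 became 22 in the fit of all libraries and ran from 0 to 13, and the unadjusted count of 98 became 178 with a pseudocount of 0.1, 61 with the minimum mean, 156 on TPM and 57 with ordinary variances, and ran from 81 to 201. In the hypothalamus the adjusted count of 3 became 0 without the filter, 1 on TPM, 0 with ordinary variances, 9 in the fit of all libraries and 0 with the replicate block, and ran from 0 to 9, and the unadjusted count of 46 became 86 with the pseudocount of 0.1, 27 with the minimum mean, 88 on TPM and 21 with ordinary variances, and ran from 34 to 69. The cause of these shifts was not tested.

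Among the 10 acute phase genes, the 2 called in liver became 1 without the filter and 1 with ordinary variances, and ran from 1 to 3 without 1 library. On the deposited TPM 3 were called, Orm2 among them. In the fit of all libraries Orm2 passed the liver limits (adjusted p = 0.0137), Hpx did not (0.217), and Lcn2 passed the adjusted limit in iWAT (0.0317). Without 1 library Saa2 ran from 0.06 to 0.86 and Hp from -0.88 to -0.21 in liver. The 3 past the unadjusted limit in iWAT ran from 2 to 4, and the 1 gene with a tissue difference ran from 1 to 3. The 10 further positive acute phase genes called became 2 with ordinary variances, 6 in the fit of all libraries and 19 with median-ratio scaling and without LKO 1, an alternative chosen after seeing the data, and ran from 2 to 14. The share of all genes called under that alternative is not given. The sign turned for Saa1 (-0.30), Crp (-0.39) and Serpina3n (-0.43) after median-ratio scaling and for Orm1 on TPM (0.0033) in liver. Without 1 library at a time the log2 fold change ran from -0.32 to 0.50 for Saa1, from -0.046 to 0.13 for Crp and from -0.069 to 0.13 for Serpina3n in liver, from -0.15 to 0.72 for Orm1 and from -0.041 to 0.51 for Orm2 in iWAT, from -1.29 to 0.096 for Orm1 in GM and from -0.045 to 0.063 for Serpina3n in the hypothalamus. For single genes, 150 comparisons under settings other than leaving out 1 library kept their direction and their side of the threshold, 6 became stronger, 8 weaker and 4 turned sign. Of those that left out 1 library, 98 kept both, 6 became stronger, 11 weaker and 14 turned sign.

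With 3 libraries per group, the data cannot settle whether replicate numbers pair the samples or mark a shared batch. Same-numbered Ctrl and LKO libraries deviated from their group means with correlations of 0.15, 0.028 and 0.036 in liver, of 0.30, -0.12 and 0.20 in iWAT, of 0.35, 0.050 and 0.16 in GM and of -0.13, 0.14 and 0.086 in the hypothalamus. Not every library correlated best with its own number, but Ctrl 1 correlated best with LKO 1 in liver, iWAT and GM. With the replicate block, 3031 liver genes were called, and 2 of the 10 acute phase genes, Lcn2 and Orm2, with Hpx at an adjusted p of 0.055. In GM Hpx passed the unadjusted limit with the block at the same change of -0.65 (adjusted p = 0.536). The unadjusted counts with the block were 433 in iWAT, 145 in GM and 48 in the hypothalamus.

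With 3 libraries per group and values without read counts, transcripts near 1 FPKM can pass the filter through 1 group alone, as Lcn2 did in the hypothalamus. Saa1 and Saa2, Orm1 and Orm2, and the Serpina1 and Serpina3 clusters share sequence, so the division of reads between their members is uncertain.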

Other observations

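A few genes of the same lists passed the unadjusted limit in iWAT and GM, none of them after adjustment within a tissue. In GM the only such gene besides Hp was Serpina1e, 1 of 18 further positive acute phase genes tested (beside 0.901% of all genes), at 50.4, 3.05 and 45.8 FPKM in Ctrl and at 10.4, 0.44 and 1.02 FPKM in LKO mice, with overlap. In iWAT, where 3.25% of all genes passed the limit, Alb transcripts, which encode albumin, were measured at 23.8, 13.1 and 12.8 FPKM in Ctrl and at 35.2, 46.9 and 49.2 FPKM in LKO mice, with no overlap, while Hpx, another hepatocyte transcript, was at 0.27 FPKM or less in Ctrl and at 0.16, 1.17 and 0.79 FPKM in LKO mice. Alb was 1 of 3 negative acute phase genes tested there. Bcl3 and Il1r2 (2 of 12 feedback genes), Lif (1 of 3 inducing cytokines) and C4b (1 of 13 further positive acute phase genes) were lower in LKO iWAT by the same limit, and none of the other lists had a gene past it.

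Orm3, the third orosomucoid gene of the mouse, did not pass the filter in liver. It was measured at 0.10, 0.19 and 0.49 FPKM in Ctrl and at 0.19, 5.62 and 20.001 FPKM in LKO livers, so that LKO 2 and LKO 3 lay above all Ctrl livers and LKO 1 among them, as for Orm2. Its transcript was identical to that of Orm2 at 88.3% of aligned positions.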
